A study of Homo sapiens with 4 samples.

Results

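The S100A10 ChIP-seq peaks on chromosome 10 were examined in polyploid giant cancer cells (PGCCs) and their daughter cells from the HCT116 and LoVo lines. All intervals on this chromosome were taken from both peak lists, and summit lines with the same interval were counted as 1 peak. There were 343 distinct peaks in HCT116 and 53 in LoVo, which are 396 of the 5528 peaks of both lists. The chromosome was selected on its high number of peaks in HCT116, and the border between its sparse and dense parts was placed by the peaks themselves, so the counts are a description and no test was applied to them. HCT116 and LoVo are established human colon cancer cell lines, and both were treated with CoCl2 at 535.5 µM for 48 h per the labels; the methods of the study give another dose. Each line had 1 ChIP library, made with an antibody against S100A10, and 1 input library of chromatin not precipitated with the antibody, so that no replicate error can be given. After mapping and removal of duplicates, the lists were called from 16561424 ChIP tags and 14962190 input tags in HCT116 and from 19762814 ChIP tags and 12925105 input tags in LoVo. Untreated cells and a ChIP with a control antibody were not analysed here, and PGCCs and their daughter cells were not separated.

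S100A10 is a small protein of the S100 family that forms a complex with annexin A2 and acts as a plasminogen receptor at the cell surface. It has no known DNA-binding domain. In ChIP-seq, DNA cross-linked to the protein is precipitated and sequenced, and a peak is an interval where the ChIP tags exceed the local background of the input library. The short arm of chromosome 10 is named 10p and the long arm 10q, and the satellite repeats around the centromere between them are difficult for mapping. HCT116 is known from its karyotype to carry an additional copy of part of distal 10q. The copy number of these cells was not measured in the peak lists, and its part in the results was not tested.

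The HCT116 peaks lay at 5 of the 1680 annotated chromosome 10 promoters for which RefSeq sequence (GRCh38.p14) was at hand, each taken as 300 bases from 250 before the transcription start. They were 5 of 343 peaks (1.46%), against 1.89% on the other autosomes with promoters in the table. In LoVo it was 0 of 53 peaks, against 0.567% on those autosomes. Because the first peak of the dense region covers the start of CRTAC1, a secreted cartilage acidic protein, its promoter is shown with that of PCGF5, a component of a Polycomb repressive complex, where the summit lay nearest to a start. Capitals mark the bases inside the peak. CRTAC1 is on the minus strand at chr10:98030572-98030871, and PCGF5 is on the plus strand at chr10:91220413-91220712.
CRTAC1: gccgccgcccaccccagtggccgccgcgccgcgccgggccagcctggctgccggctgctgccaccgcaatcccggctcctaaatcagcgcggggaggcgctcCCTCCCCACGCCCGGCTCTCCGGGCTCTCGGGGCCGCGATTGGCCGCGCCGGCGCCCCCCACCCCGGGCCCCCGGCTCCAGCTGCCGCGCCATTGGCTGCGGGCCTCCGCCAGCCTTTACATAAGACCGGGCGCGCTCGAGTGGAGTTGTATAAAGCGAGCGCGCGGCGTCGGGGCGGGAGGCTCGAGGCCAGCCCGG
PCGF5: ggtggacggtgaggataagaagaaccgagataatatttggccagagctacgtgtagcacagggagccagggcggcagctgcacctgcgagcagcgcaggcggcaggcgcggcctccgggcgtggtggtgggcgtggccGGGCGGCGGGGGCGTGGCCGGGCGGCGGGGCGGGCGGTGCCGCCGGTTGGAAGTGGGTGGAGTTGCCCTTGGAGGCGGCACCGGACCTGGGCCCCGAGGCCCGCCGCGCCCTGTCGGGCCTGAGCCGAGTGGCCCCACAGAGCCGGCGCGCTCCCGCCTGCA

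The CRTAC1 peak at chr10:98030510-98030769 had 8 tags at its summit, a fold enrichment of 3.65 at a −log10 q of 0.566, and its summit was 76 bp upstream of the start. The PCGF5 peak at chr10:91220551-91220824 had 9 tags, a fold enrichment of 2.99 at a −log10 q of 0.0619, and its summit was 10 bp downstream of the start. Both peaks had few tags and q-values above 0.05, for which −log10 q must reach 1.3. Both promoters were rich in G and C, with a GC content of 77.7% for CRTAC1 and 74.7% for PCGF5 against a median of 57.7% over the 1680 promoters. CRTAC1 held 43 CG dinucleotides and PCGF5 held 35, against a median of 13. The letters GGGCGG, read on both strands, occurred 2 times in CRTAC1 and 5 times in PCGF5, and 42.0% of the promoters held them. TATAAA occurred 1 time in CRTAC1 and was not found in the PCGF5 window, and 9.82% of the promoters held it. CCAAT occurred 2 times in CRTAC1, was not found in the PCGF5 window and was held by 33.6% of the promoters. None of these 3 words contains another. The other peaks at promoters were those of LOC124902536, KCNK18, which encodes a potassium channel, and LINC02641, and they covered 88, 9 and 26 of the 300 bases. These promoters had a GC content of 67.3%, 62.0% and 57.3% and held 20, 10 and 5 CG dinucleotides, so high values were not shared by all. Of the peaks at promoters, only that of LINC02641 passed the limit on q, with 10 tags and a −log10 q of 2.05.

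To find where peak density changed, a single border was fitted to the HCT116 peaks outside the pericentromeric stretch of 38 to 43 Mb. The border with the greatest likelihood lay at 98.03 Mb on 10q, at the CRTAC1 peak, and positions from 98.03 to 99.82 Mb were within 2 log-likelihood units of it. The last peak before it began at 95.06 Mb and had 7 tags and a fold enrichment of 3.05. The second peak past it began at 98.31 Mb and had 7 tags and a fold enrichment of 2.89. The chromosome was therefore described as 10p (0 to 38 Mb), the pericentromeric stretch, proximal 10q (43 to 98.03 Mb) and distal 10q (98.03 Mb to the end of the last annotated gene at 133.8 Mb). On either side of the pericentromeric limits, the last HCT116 peak before 38 Mb began at 37.83 Mb with a fold enrichment of 2.85, the first inside began at 38.53 Mb with 3.82, the last inside at 42.48 Mb with 4.05 and the first after 43 Mb at 43.23 Mb with 3.65. In LoVo the corresponding peaks began at 28.68, 38.92, 42.26 and 70.30 Mb.

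In HCT116, distal 10q held 220 peaks and the pericentromeric stretch held 67, while 10p held 24 and proximal 10q held 32. The density was 6.15 peaks per Mb in distal 10q (95% exact Poisson interval 5.37 to 7.02), 0.632 on 10p (0.405 to 0.940) and 0.582 in proximal 10q (0.398 to 0.821). All intervals cover counting error only. The border was placed by these same peaks, so a separation of the densities on its sides was fixed by the choice. The density in distal 10q was 10.2 times (7.59 to 14) that of 10p and proximal 10q together, and that of 10q was 4.40 times (2.89 to 6.99) that of 10p. The first ratio was 4.90 (3.92 to 6.17) with 38 to 43 Mb included, and 52.0 (8.32 to 2160) with a −log10 q of at least 1.3. Distal 10q held 64.1% of the HCT116 peaks on the chromosome (Clopper-Pearson interval 58.8 to 69.2%).

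The LoVo list had a different distribution. It held 4 peaks on 10p, 3 in proximal 10q and 3 in distal 10q, against 43 in the pericentromeric stretch. The density in distal 10q was 0.0839 peaks per Mb (0.0173 to 0.245), and the ratio to 10p and proximal 10q was 1.12 with an interval from 0.186 to 4.89. This ratio fell on either side of 1 with the choice of peaks. It was 0.372 (0.00825 to 2.89) without the 2 peaks at the end of 10q and 0.409 (0.00907 to 3.18) without the first and last 5 Mb. With a −log10 p of at least 4 it was 5.20 (0.271 to 307), and each of these intervals holds 1. The pericentromeric stretch held 81.1% (68.0 to 90.6%) of the LoVo peaks and 19.5% (15.5 to 24.1%) of the HCT116 peaks. HCT116 had 3.01 times as many peaks as LoVo in the whole list and 3.40 times as many on the other autosomes (3.15 to 3.66). By part, the ratio of HCT116 to LoVo counts was 1.56 (1.05 to 2.34) in the pericentromeric stretch, 6.0 (2.06 to 23.8) on 10p, 10.7 (3.34 to 54.4) in proximal 10q and 73.3 (24.8 to 358.3) in distal 10q. The lists were called from separate libraries at different depths, so these ratios compare 2 lists and not 2 kinds of cells.

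**Figure D1:**
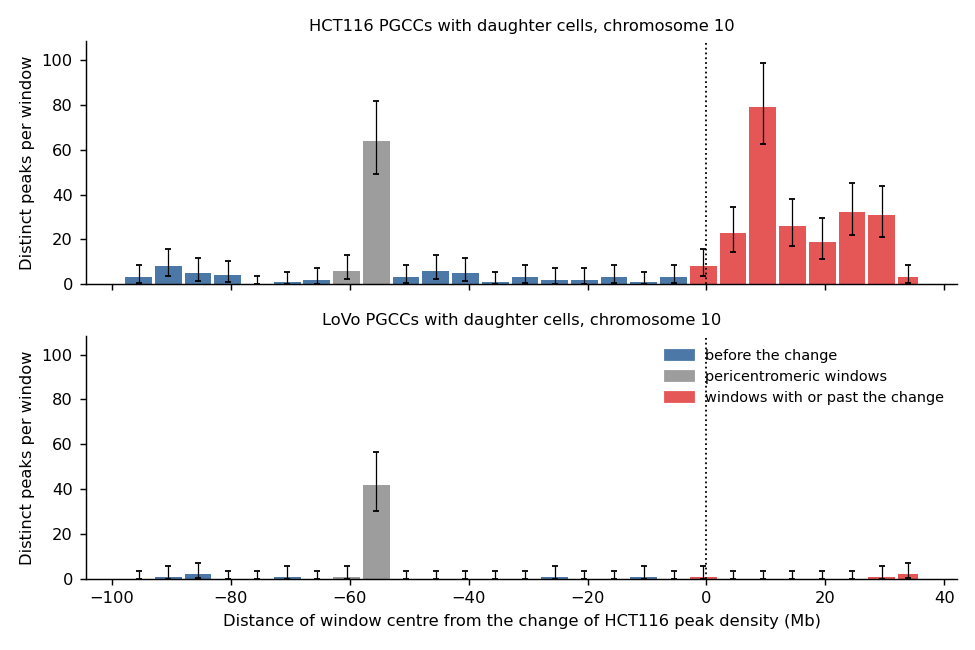
Distinct peaks in each 5 Mb window of chromosome 10 (y axis, number of peaks) against the distance of the window's centre from the density change (x axis, Mb) in HCT116 (top) and LoVo (bottom), with bars for counts and lines for 95% exact Poisson intervals. HCT116 windows past the change rise to 79 peaks, while the highest LoVo bar is the pericentromeric window with 42.

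Along 10p and proximal 10q, the 5 Mb windows of HCT116 that did not touch the pericentromeric stretch held between 0 and 8 peaks. The window of 95 to 100 Mb held 8, that of 100 to 105 Mb held 23 and that of 105 to 110 Mb held 79 (62.6 to 98.5). The following windows held 26, 19, 32 and 31 peaks, and the last stretch from 130 Mb held 3. In LoVo, each window other than the pericentromeric window of 40 to 45 Mb held between 0 and 2 peaks. When 2 changes were fitted together, they fell at 100.74 and 109.84 Mb. The stretch between them held 100 peaks, or 11.0 per Mb (8.94 to 13.4), against 4.68 per Mb (3.85 to 5.63) beyond it and 2.95 (1.27 to 5.82) from 98.03 to 100.74 Mb. No LoVo peak lay in the stretch, for which the exact Poisson interval reaches 0.405 peaks per Mb. The LoVo density was 0.078 per Mb on chromosome 10 outside 38 to 43 Mb and 0.330 on the other autosomes. Both lie within that interval.

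At 1 Mb, the densest run was from 105 to 110 Mb, with 16, 17, 14, 14 and 18 peaks in the 5 windows. The next window held none and the one after it 12. Within distal 10q, the longest peak-free gap was 4.13 Mb, from 129.56 to 133.69 Mb, and the next was 1.25 Mb, from 109.84 to 111.09 Mb. The median gap between neighbouring peaks was 76.0 kb (quartiles 22.0 and 176 kb) in distal 10q against 693 kb on 10p and proximal 10q. The peaks were dispersed rather than stacked, since 5 of the 219 gaps were under 1 kb and 219 of the 220 peaks had a single summit. The window of 105 to 110 Mb contains 39 annotated genes, of which 2 are protein-coding, and 36.9% of its bases lie in genes. The window of 100 to 105 Mb contains 148 genes with 76 protein-coding, and 75.1% of its bases lie in genes.

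**Figure D2:**
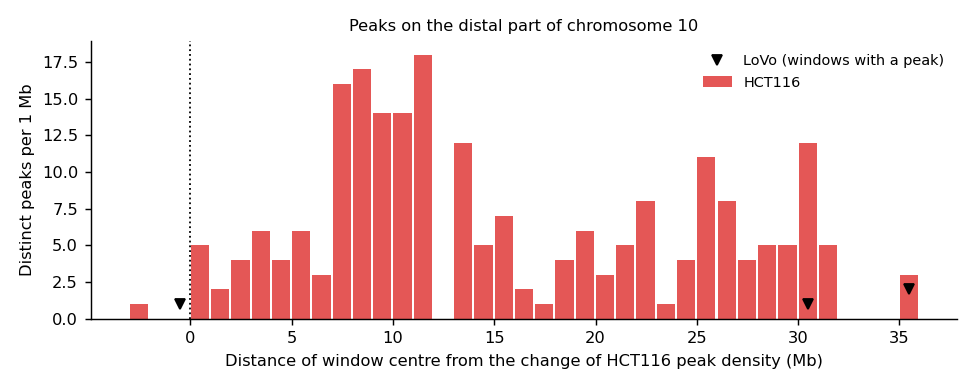
Distinct HCT116 peaks in 1 Mb windows (bars) and LoVo peaks where there were any (triangles) against the distance from the density change (x axis, Mb; y axis, number of peaks). The densest run of HCT116 windows holds 14 to 18 peaks each, followed by a window with none.

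Compared with the rest of the genome, the chromosome was dense for HCT116 through distal 10q. Its density was 2.56 peaks per Mb (2.30 to 2.85), the 6th of the 22 autosomes, which is 2.29 times (2.04 to 2.56) that of the other autosomes. Without its pericentromeric stretch it was at 1.91 times (1.68 to 2.16), although the other autosomes keep their pericentromeric peaks in this and the following ratios. Distal 10q alone was at 5.49 times (4.77 to 6.30) the density of the other autosomes, and the stretch between the 2 changes at 9.80 times (7.95 to 12). In contrast, 10p and proximal 10q together were at 0.537 times (0.405 to 0.699). Chromosome 21 had 6.36 peaks per Mb (5.66 to 7.13), chromosome 17 had 3.66 (3.26 to 4.10) and chromosome 8 had 2.58 (2.32 to 2.85). In LoVo, chromosome 10 was the 9th, at 1.20 times (0.893 to 1.58) the density of the other autosomes with its pericentromeric stretch and at 0.235 times (0.113 to 0.435) without it.

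**Figure D3:**
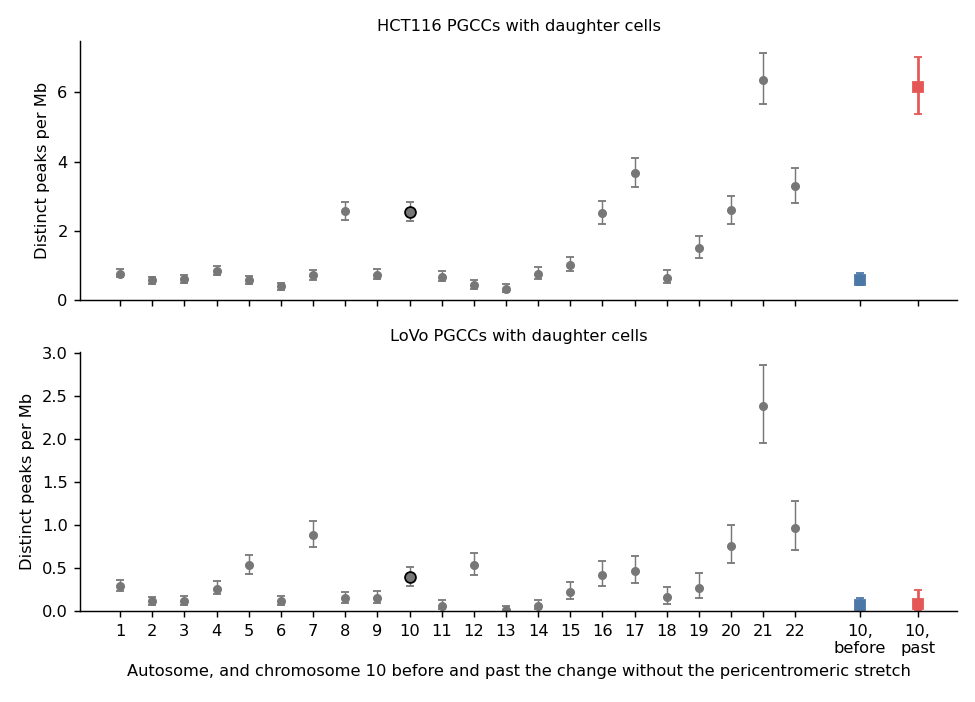
Distinct peaks per Mb (y axis) on each autosome and on chromosome 10 before (blue) and past (red) the density change, with points for the density and lines for 95% exact Poisson intervals, in HCT116 (top) and LoVo (bottom, other y scale). Distal 10q of HCT116 lies at 6.15 peaks per Mb, near chromosome 21, and its counterpart in LoVo lies at 0.0839.

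The size of the excess depended on the limit set on the scores and on the pericentromeric peaks. Of the 4148 HCT116 peaks of the whole list, 25.7% reached a −log10 q of 1.3, and 10.8% were enriched at least 5-fold. On chromosome 10, 66 of the 343 peaks (19.2%) reached the limit on q and 32 (9.33%) the limit on fold enrichment. In the pericentromeric stretch 45 of 67 peaks (67.2%) reached the limit on q, against 20 of 220 (9.09%) in distal 10q, 1 of 32 (3.13%) in proximal 10q and 0 of 24 on 10p. With the limit on q applied to all chromosomes, the density of the whole of chromosome 10 was 2.21 times (1.69 to 2.85) that of the other autosomes, and that of distal 10q was 2.51 times (1.52 to 3.90). Leaving the pericentromeric stretch out of chromosome 10 alone gave 0.730 times (0.449 to 1.13), an interval that holds 1. With the limit on fold enrichment, counted here for any summit of a peak (33 peaks), the ratio was 3.16 (2.12 to 4.57) for the whole chromosome and 0.298 (0.0610 to 0.884) without the stretch. Distal 10q held 3 of these peaks, a ratio of 1.08 (0.220 to 3.18), or 2 counted by the highest summit, a ratio of 0.730 (0.0878 to 2.67), and both intervals hold 1. In LoVo, the whole chromosome was at 2.50 times (1.64 to 3.68) with the limit on q, and distal 10q held 1 such peak. Distal 10q held 20 peaks past the limit on q against 1 on 10p and proximal 10q, a ratio of densities of 52.0 (8.32 to 2160) that rests on this 1 peak.

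Most distal 10q peaks rested on few tags. The smallest number of tags in a called HCT116 peak was 6. Of the 220 distal peaks, 52 had 6 tags, 63 had 7, 53 had 8, 28 had 9 and 24 had 10 or more. Thus 52.3% had 6 or 7 tags, against 35.5% of the whole HCT116 list, 62.5% on 10p, 43.8% in proximal 10q and 2.99% in the pericentromeric stretch. Within each number of tags the density of distal 10q exceeded that of the other autosomes, at 7.38 times (5.44 to 9.82) for 6 tags, 6.99 times (5.31 to 9.05) for 7, 6.43 times (4.76 to 8.51) for 8, 5.34 times (3.50 to 7.84) for 9 and 2.28 times (1.45 to 3.42) for 10 or more. The ratio was thus lower for peaks with more tags. Peaks with 10 or more tags numbered 24 in distal 10q and 1 on 10p and proximal 10q together.

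The median fold enrichment was 3.25 in distal 10q, 3.25 on 10p, 3.37 in proximal 10q and 4.54 in the pericentromeric stretch, against 3.53 over the whole HCT116 list. The median −log10 q was 0.0148 in distal 10q and 3.17 in the pericentromeric stretch. In distal 10q, 76 peaks (34.5%) had the shortest interval the caller could give, 260 bp, and 69 (31.4%) had a −log10 q of 0. In the whole HCT116 list these shares were 27.9% and 22.8%. On 10p and in proximal 10q together, 44.6% of peaks had the shortest interval and 1.79% had 10 or more tags, against 10.9% of distal peaks with 10 or more. All of these parts were below the whole HCT116 list, where 33.1% of peaks had 10 or more tags, and the other autosomes, with 26.3%. Scores of chromosome 8 were near to those of distal 10q, with a median of 7 tags and 6.68% of peaks past the limit on q. Peaks of chromosome 21 were higher, with a median of 9 tags and 30.6% past the limit.

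The local background of each peak, in scaled input tags, was recovered from the pileup and the fold enrichment. MACS does not let it fall below the genome-wide mean, which was 1.25 in HCT116, so that an input depth below the mean cannot be seen. In distal 10q, 63.2% of peaks were at this lower limit, against 87.5% on 10p, 75% in proximal 10q, 81% in the stretch between the 2 changes and 59.6% on the other autosomes. Beyond that stretch, 56 of 112 peaks were at the limit. The median was within 0.01 of the limit in distal 10q and on 10p and was 2.0 in the pericentromeric stretch. These values are given at called peaks and are no measure of the input over the region. Whether the number of tags from distal 10q was raised in the ChIP library as a whole was not tested.

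**Figure D4:**
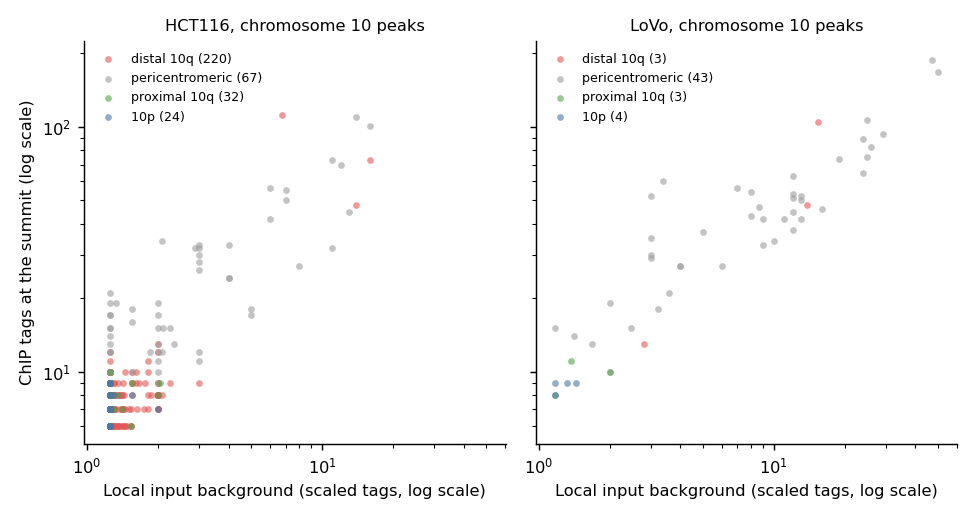
ChIP tags at the summit (y axis, log scale) against the local input background (x axis, scaled tags, log scale) for every chromosome 10 peak of HCT116 (left) and LoVo (right), each point being 1 peak coloured by its part of the chromosome. Distal HCT116 peaks cluster at 6 to 9 tags near the lower limit of the background, and the pericentromeric peaks and 3 peaks at the end of 10q extend to 112 tags.

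The highest peaks outside the pericentromeric stretch were at the end of 10q, past the longest gap. In HCT116, the peak at chr10:133688231-133688609 had 112 tags, a background of 6.76, a fold enrichment of 13.2 at a −log10 q of 74.7, the 26th of the whole list. The LoVo peak at chr10:133688263-133688584 had 105 tags, a background of 15.4, a fold enrichment of 4.23 at a −log10 q of 17.2, the 46th of its list. The 2 summits, at 133688416 and 133688413, were at nearly the same position. A further HCT116 peak at chr10:133689215-133690476 had 73 tags and a −log10 q of 15.5, and it overlapped a LoVo peak at chr10:133689721-133690280 with 48 tags and a −log10 q of 0.524. The third HCT116 peak, at chr10:133687633-133688049, had 48 tags and a −log10 q of 5.69, and no LoVo peak overlapped it. None of these lay in a gene, and the nearest annotated start was that of FRG2B, 61.0 to 63.1 kb away, a member of a gene family with near-identical copies on other chromosomes. The end of 10q is known to carry a repeat array like that at the end of 4q, and whether the peaks lie in it was not tested. Their backgrounds were 5.39 to 13.2 times the genome-wide mean of their library, a measured fact whose part in the peaks was not tested.

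Of the 217 distal HCT116 peaks before the longest gap, the highest −log10 q was 2.93, at chr10:128464312-128464608, with 12 tags and a fold enrichment of 5.25. It lay in no gene, and the nearest start was LOC124902558 at 144.2 kb. LoVo had an overlapping peak at chr10:128464332-128464766 with 13 tags, a fold enrichment of 2.49 at a −log10 q of 0. The next 13 distal peaks were tied at a −log10 q of 2.05, each well below those of the chromosome end. Among them was a peak in SORCS3 at chr10:105138378-105138718, with 10 tags and a fold enrichment of 4.45.

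In the whole lists, 13.9% of HCT116 peaks overlapped a LoVo peak and 45.1% of LoVo peaks overlapped an HCT116 peak. On chromosome 10 the shares were 30 of 343 (8.75%) and 34 of 53 (64.2%). They came from the pericentromeric stretch, where 27 of 67 HCT116 peaks (40.3%) and 31 of 43 LoVo peaks (72.1%) overlapped, and from the 3 distal peaks of HCT116 described above, which are 1.36% of the 220. No HCT116 peak of 10p or proximal 10q overlapped a LoVo peak. All 3 distal peaks of LoVo overlapped an HCT116 peak.

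The pericentromeric stretch was peak-rich in both lists. By 1 Mb window from 38 to 43 Mb, HCT116 had 5, 0, 3, 40 and 19 peaks and LoVo had 1, 0, 7, 21 and 14. Both lists thus had most of these peaks from 41 to 43 Mb. The highest HCT116 peak, chr10:42078324-42080082, had 110 tags, a fold enrichment of 6.69 at a −log10 q of 44.2, and the LoVo peak overlapping it, chr10:42078969-42080055, had 188 tags, a fold enrichment of 2.58 at a −log10 q of 14.3 over a background of 47.0. The highest LoVo peak, chr10:40980990-40981327, had 60 tags, a fold enrichment of 9.20 at a −log10 q of 22.3, and no HCT116 peak overlapped it. In LoVo, 29 of the 53 chromosome 10 peaks (54.7%) reached a −log10 q of 1.3, 28 of them in this stretch, against 32.5% of the whole LoVo list, and 4 (7.55%) reached a fold enrichment of 5 against 6.23%. The LoVo peaks here had a median of 43 tags and a median background of 9.0, which is above the genome-wide mean of 1.17. Of the 67 HCT116 peaks, 1 (1.49%) lay in a gene, against 39.2% of the whole HCT116 list. Genes take up 15.0% of the bases of this stretch.

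Outside the pericentromeric stretch, LoVo had 10 peaks. The 7 before the border had 8 to 11 tags and a −log10 q of 0. They included peaks in ECHDC3, in BAMBI, a pseudoreceptor that inhibits TGF-beta signalling, in OPN4, which encodes melanopsin, and in SLIT1, a guidance ligand of Robo receptors. Each of these had a single peak, with 8, 9, 10 and 8 tags. Of the 2383 annotated genes, 105 had an HCT116 peak and 8 a LoVo peak.

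Of the HCT116 peaks in distal 10q, 111 of 220 (50.5%) overlapped a gene body, against 58.3% on 10p, 59.4% in proximal 10q and 48.1% on the other autosomes. Genes take up 58.8% of the bases of distal 10q, 61.1% of 10p and 63.9% of proximal 10q. The share of peaks in genes was thus near or below the share of bases in genes in each of these. Within 5 kb of a transcription start lay 12.3% of distal peaks, 16.7% of 10p peaks and 15.6% of proximal 10q peaks. On the other autosomes whose promoters were at hand, the share was 11.4% (10.2 to 12.6%). With each gene placed by its midpoint, which puts CRTAC1 just before the border, 72 of 646 genes of distal 10q (11.1%) had a peak, against 13 of 689 (1.89%) on 10p and 19 of 1000 (1.90%) in proximal 10q. The density of genes was alike, at 18.1 per Mb in distal 10q, 18.1 on 10p and 18.2 in proximal 10q.

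There were 10 genes with 3 or more HCT116 peaks, of which 8 lay in distal 10q, and all 15 genes with 2 peaks lay there too. Distal 10q held 220 of the 343 HCT116 peaks and 72 of the 105 genes with a peak. Overlapping genes were each counted, so the same peaks can count for more than 1 gene. SORCS1, a receptor of the sortilin family with a VPS10 domain, had the most, with 14 peaks over 607.5 kb at chr10:106573663-107181138 on the minus strand. In order along the chromosome they had 7, 8, 7, 12, 6, 6, 7, 8, 7, 6, 7, 9, 7 and 8 tags. The peak with 12 tags had a local background of 2.0, and those of the other 13 were at the genome-wide mean. The highest −log10 q was 1.27, so none passed the limit of 1.3. At 23 peaks per Mb SORCS1 was denser than the stretch between the 2 changes, which includes these 14 peaks. The gene was named for having the most peaks, so a high density follows in part from that choice. The density was not particular to SORCS1, since FAM53B had 23.98 and LINC02641 had 23.33 peaks per Mb. The remaining distal 10q genes with 3 or more peaks were less dense than SORCS1. SORCS3, the paralogue of SORCS1, had 4 peaks over 624 kb at chr10:104641290-105265242 on the plus strand. They had 10, 8, 10 and 6 tags, and the first and the third passed the limit on q. DOCK1, an exchange factor that activates Rac in cell migration, had 5 peaks over 547.1 kb at chr10:126905428-127452516 on the plus strand. They had 8, 13, 8, 7 and 10 tags in order along the chromosome, and the second and the last, with a −log10 q of 1.93 and 2.05, passed the limit.

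The other genes with 3 or more peaks were LINC02641, a long non-coding RNA gene with 5 peaks, 1 of which passed the limit on q, and HPSE2, LINC02627, FAM53B and CTBP2 in distal 10q with 3 peaks each. HPSE2 encodes heparanase 2, and CTBP2 a transcriptional corepressor. FAM53B had 1 peak with a −log10 q of 2.05, and the highest of CTBP2 was 1.27 and that of HPSE2 1.11. The 3 peaks of LINC02627 had 6 or 7 tags and a −log10 q of 0. Outside distal 10q there were PCDH15, a protocadherin of sensory hair cells, with 4 peaks of 7, 9, 9 and 10 tags over 1825 kb, and CELF2, an RNA-binding regulator of splicing on 10p, with 3 peaks. Most of these genes are long, and a long gene meets more peaks at any given density.

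**Figure D5:**
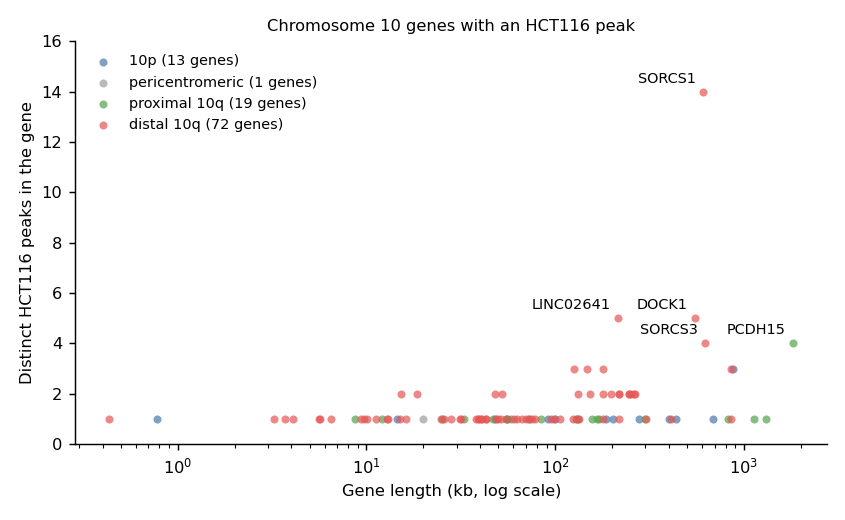
Number of distinct HCT116 peaks in each of the 105 chromosome 10 genes with a peak (y axis) against gene length (x axis, kb, log scale), each point being 1 gene coloured by its part of the chromosome. SORCS1 stands at 14 peaks, above DOCK1 and LINC02641 with 5 each and PCDH15, the longest, with 4.

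Lists of chromosome 10 genes that bear on the study's question, the part of nuclear S100A10 in migration and invasion, were read against these peaks. Of 6 annexin and plasminogen activation genes, among them PLAU, the urokinase that activates plasminogen, ANXA7 and ANXA11, none had a peak in either list. All 6 lie in proximal 10q, where 1.90% of all genes and 4.26% of protein-coding genes had an HCT116 peak, so that a count of 0 is near the share of all genes. Of 27 tumour genes, 4 had an HCT116 peak, and these were 4 of the 10 that lie in distal 10q, against 0 of 6 on 10p and 0 of 11 in proximal 10q. Of all protein-coding genes, 19.5% in distal 10q, 6.25% on 10p and 4.26% in proximal 10q had one. Among the genes without a peak were RET in proximal 10q and FGFR2 in distal 10q, both receptor tyrosine kinases. No gene of these lists had a LoVo peak. Of all 2383 genes of the chromosome, 8 had one, 4 of them protein-coding, so that this count of 0 is near the share of all genes.

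TCF7L2, the Wnt pathway transcription factor that partners beta-catenin in the colon, lies at chr10:112950247-113167678 and had 2 peaks. The first, at chr10:112994952-112995350, had 11 tags and a −log10 q of 0.897, and the second, at chr10:112996571-112996833, had 10 tags and a −log10 q of 1.34. LHPP, a phosphatase, had 2 peaks with 6 and 10 tags, a −log10 q of 0 and 2.05. SUFU, an inhibitor of Hedgehog signalling, had 1 peak with 7 tags and a −log10 q of 0.0148, and MGMT, a DNA repair methyltransferase, had 1 with 6 tags and a −log10 q of 0. Of the 4 genes, TCF7L2 and LHPP had 1 peak each that passed the limit on q.

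Of 39 genes of adhesion, cytoskeleton and migration, 10 had an HCT116 peak. They were 3 of 11 in distal 10q, 3 of 13 on 10p and 4 of 15 in proximal 10q. Of all protein-coding genes, 19.5%, 6.25% and 4.26% had one in these parts. In distal 10q they were DOCK1, AFAP1L2, an actin filament-associated protein, with 1 peak of 7 tags, and TACC2, a protein of centrosomes and microtubules, with 2 peaks of 6 and 8 tags. On 10p they were SVIL, an actin-binding protein, with 7 tags, FRMD4A with 9 tags and CELF2. In proximal 10q they were PCDH15, COL13A1 with 9 tags, CDHR1 with 6 tags and PRKG1 with 8 tags. Of the 10 genes, DOCK1 and PCDH15 had a peak that passed the limit on q. The list also holds genes with other known roles, such as CELF2. Beside the shares of all protein-coding genes given above, gene length was not taken into account.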

How the data were processed

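S100A10 ChIP and input libraries of PGCCs with daughter cells were sequenced once for each cell line. Per the file headers, the authors called peaks with MACS version 2.1.0.20150420 on tags without duplicates, at p-values of up to 0.005 (the methods of the study give another threshold) and without a fragment model, with tags extended by 260 bp in HCT116 and 281 bp in LoVo. The aligner is not given in the sources used here. The deposited signal is the pileup of ChIP tags at a summit, which the authors scaled to the input by 0.903 in HCT116 and 0.654 in LoVo. The deposited ratio is the fold enrichment over the local background with a pseudocount of 1, and the authors also deposited −log10 p and −log10 q, whose damaged column names were read from the order of MACS columns.

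The tags were recovered as the pileup divided by the scale and were whole at 100.0% of summits within 0.02. The local background is the pileup plus 1, divided by the fold enrichment, less 1, and peaks within 0.01 of the genome-wide mean were counted as at the lower limit. A peak with several summits has the values of its highest. The border was the position of greatest Poisson likelihood with parts of at least 5 Mb. The fitting step, and not this border, was tested on simulated data. Peaks shared at least 1 bp to overlap. A build is not stated in the lists, but names of their unplaced sequences are those of GRCh38, so genes and promoters were taken from RefSeq GRCh38.p14. No reference genome was used, so exons, introns and peak sequences were not analysed here.

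The members and lists were chosen with earlier results of these data known. Named peaks were the highest by −log10 q outside and inside 38 to 43 Mb, those shared by both lists and those at promoters. Named genes were those with at least 3 peaks, those of LoVo and those of the lists. An item of the lists is not reported here. Densities have exact Poisson intervals and shares Clopper-Pearson intervals, at 95%. Alternatives were limits on −log10 p, −log10 q and fold enrichment, other borders, joined intervals, every summit line, coding genes and the ends of the chromosome kept apart. Scripts ran in Python 3.11.15 (scipy 1.17.1, pandas 2.3.3, numpy 2.4.6, matplotlib 3.10.9).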

Additional observations from a re-analysis of the deposited data

How the results depend on the processing

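The density of HCT116 peaks past the border over that before it was 4.90 with 38 to 43 Mb included and 52.0 with a −log10 q of at least 1.3. The density of chromosome 10 over the other autosomes was 2.29 with 38 to 43 Mb included, 2.34 with intervals under 10 kb apart joined and 1.54 with a −log10 p of at least 4. It reversed to 0.730 (0.449 to 1.13) with the limit of 1.3 on −log10 q and to 0.298 with a fold enrichment of at least 5. With 38 to 43 Mb included, as the other autosomes keep their pericentromeric peaks, it was 2.21 and 3.16 with these limits (chosen after seeing the data). Pericentromeric peaks were not left out of the other autosomes. The LoVo ratio across the HCT116 border rested on 3 distal peaks. It was 0.165 with 38 to 43 Mb included, 0.409 without the first and last 5 Mb, 0.744 with joined intervals, 0.372 without the peaks at the end of 10q past the longest gap (chosen after seeing the data) and 5.20 with the limit on −log10 p. The HCT116 count was 174, 66 and 33 with the limits on −log10 p, −log10 q and fold enrichment, the last counting any summit of a peak. The LoVo count was 24 with joined intervals, 29 with the limit on −log10 q and 4 with that on fold enrichment. The border lay at 100 Mb by window edges, at 100.74 and 109.84 Mb with 2 changes, and at 100.74, 104.84 and 128.46 Mb with the limits on −log10 p, −log10 q and fold enrichment. The overlap with LoVo was 14.2% by summit lines, 21.2% with the limit on −log10 q and 0% with that on fold enrichment. The share in genes was 15.2% and 0% with these limits and 31.8% for coding genes. The cause of these changes was not tested, except that stricter limits leave fewer peaks. The ratio of 10q to 10p kept its direction under every alternative that gave a value. It had none with the limits on −log10 q and fold enrichment, which left no 10p peak, nor did the fold limit for the ratio across the border or both limits for the LoVo ratio.

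No paired analysis was possible because each group had 1 library. Without replicates, the intervals cover counting error. Of the 220 distal peaks, 52 had 6 tags, the smallest number in a called HCT116 peak, and how many would be called at another depth was not tested.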
